A study of Mus musculus with 4 samples.

Results

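Mature Ccr7 Fscn1 Ccl22 dendritic cells were picked out of a single-cell RNA sequencing data set of 4T1 tumours by 5 limits on each cell barcode. A cell, called a member here, had 300 or more detected genes, at most 15% of its unique molecular identifiers (UMIs, which count transcript molecules rather than reads) from mitochondrial genes, at least 1 UMI each of Ccr7, Fscn1 and Ccl22, no UMI of the T cell receptor complex genes Cd3d and Cd3g, and under 0.2% of its UMIs from the keratin genes Krt8 and Krt18. Of 32133 cells that passed the limits on genes and mitochondrial UMIs, 216 were members, a share of 0.672% (exact Clopper-Pearson 95% interval 0.586% to 0.768%). Since Ccr7, Fscn1 and Ccl22 chose the cells, their levels are given as a description of that choice.

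For these tumours, 1000000 cells of 4T1, a mammary carcinoma line of the mouse, were placed in the flank of female BALB/c mice aged 6 to 8 weeks, and the tumour cell suspension was sorted for the leucocyte protein CD45. The sample records list 2 PBS samples, 1 TIOs+NIR sample and 1 sample whose title names PBS while its protocol names TIOs, and which was left unassigned. TIOs are micron-sized particles made from frozen macrophages loaded with light-activated nanoparticles that oxidise lipids, and every group, PBS included, received its PBS or its TIOs into a vein on day 7 and 980 nm near-infrared light at 1.0 W cm-2 for 5 min on each day from 8 to 10, before tumours were taken on day 13. The tumour is a transplanted line of 1 origin in 1 inbred strain, and for no library do the sources used here say how many mice it came from. All cells were deposited in 1 matrix of 355765099 UMIs, in which a barcode suffix marks 4 libraries. No source used here ties a suffix to a sample, so libraries 1 to 4 are of unknown treatment, no treatment could be compared, and no p-value was computed. The libraries held 108646352, 81369540, 69255999 and 96493208 UMIs, with medians of 11698, 2641.5, 2695 and 7182 UMIs per cell.

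Dendritic cells sample antigen in tissue and, once activated, mature. A maturing cell takes up less antigen, raises costimulatory ligands and the chemokine receptor CCR7, which guides it along lymphatic vessels to the draining lymph node, and shows peptides to T cells on MHC molecules. In tumours, mature dendritic cells are also known for a set of regulatory genes, such as Cd274, Cd200 and Socs2, carried beside the stimulatory ones.

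Library 3 held most of the mature dendritic cells. There were 12 members in library 1 (0.153% of 7847 cells, 95% interval 0.0790% to 0.267%), 15 in library 2 (0.174% of 8614, 0.0975% to 0.287%) and 189 in library 3 (2.79% of 6783, 2.41% to 3.21%). Library 4 had 0 of 8889, which allows a share of up to 0.0337% by a floor of 3 counts, with an exact upper bound of 0.0415%. The interval of library 3 did not overlap those of the other libraries. These intervals cover counting error only, and the spread between mice could not be examined, since each library stands alone. The median UMI count per cell in library 3 was near that of library 2 and under those of libraries 1 and 4. When each cell was thinned to 2000 UMIs before the limits were applied, which left out 8886 shallower cells, 138 cells met the rule, 9 in library 1, 5 in library 2, 124 in library 3 (2.75% of its thinned cells) and 0 in library 4. Of these, 134 were members before thinning and 4 were not. No cell barcode of a member was shared with another library, although the 4 libraries shared 101 barcodes over their pairs.

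UMIs of the gate genes and of Ccl5 were also found in other cell types, and their source was not tested. Neutrophils here were cells with at least 1 UMI of Csf3r and at least 2 each of S100a8 and S100a9. No limit on genes of other lineages was set, so cells of other types may be among them. Their deepest cell had 230481 UMIs. Among the 2412 neutrophils of library 3, with a median of 2157 UMIs, a Ccr7 UMI was found in 4.10%, a Fscn1 UMI in 11.8%, a Ccl22 UMI in 1.87% and a Ccl5 UMI in 10.5%. In the 972 fibroblasts of library 3, which were deeper (median 30731 UMIs), the shares were 14.3%, 85.2%, 7.92% and 36.9%. In its 442 T cells they were 33.0%, 18.6%, 4.07% and 18.6%. The tumour cells of library 1 held Fscn1 in 79.8%. Fscn1 was found in 16.7%, 11.4% and 13.5% of neutrophils in libraries 1, 2 and 4, and Ccl5 in 9.58%, 1.92% and 8.58%. Of the 7997 neutrophils of all libraries, 4294 were deep enough to be thinned to 2000 UMIs, and 3.82% of those held Ccl5. Cells close to the limits of the rule were counted. In all, 57 members carried exactly 1 UMI of at least 1 gate gene, 27 of them for Ccr7, 7 for Fscn1 and 52 for Ccl22. Just outside, 118 cells lacked only Ccr7, 26 only Fscn1 and 279 only Ccl22. The limit on Cd3d and Cd3g removed 11 cells. The keratin limit removed 1 of those same cells, and without it the members still numbered 216.

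The members fell apart into a large and a small set by the share of their UMIs that came from the gate genes. In 30 of the 216, that share was 0.0142% to 0.0484%. In the other 186 it was 0.107% in the lowest cell, 0.216% in the next, 0.879% in the median and 1.86% in the highest. The boundary of 0.1% was set after these values were seen. The 30 cells were deep, with a median of 55998.5 UMIs (11657 to 149735), against 9187 (902 to 52061) in the 186, and they held 48.8% of all UMIs of the members. All but 1 of the 30 had a single UMI of at least 1 gate gene, namely 29 cells, and none was a member after thinning. All 30 had a UMI of Col1a1, the chain of type I collagen made by fibroblasts, and in 27 the collagen genes of the fibroblast list reached 0.1% of UMIs. Of the shallower 186, 100 had a UMI of Col1a1 and 17 reached that share. Flt3 or Zbtb46, which mark conventional dendritic cells, were found in 9 of the 30 and in 150 of the 186. Cd3e, a T cell gene not used by the rule, was found in 16 of the 30 and in 14 of the 186, and 20 of the 30 had no UMI of Ptprc, the gene of CD45, against 71 of the 186.

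**Figure D1:**
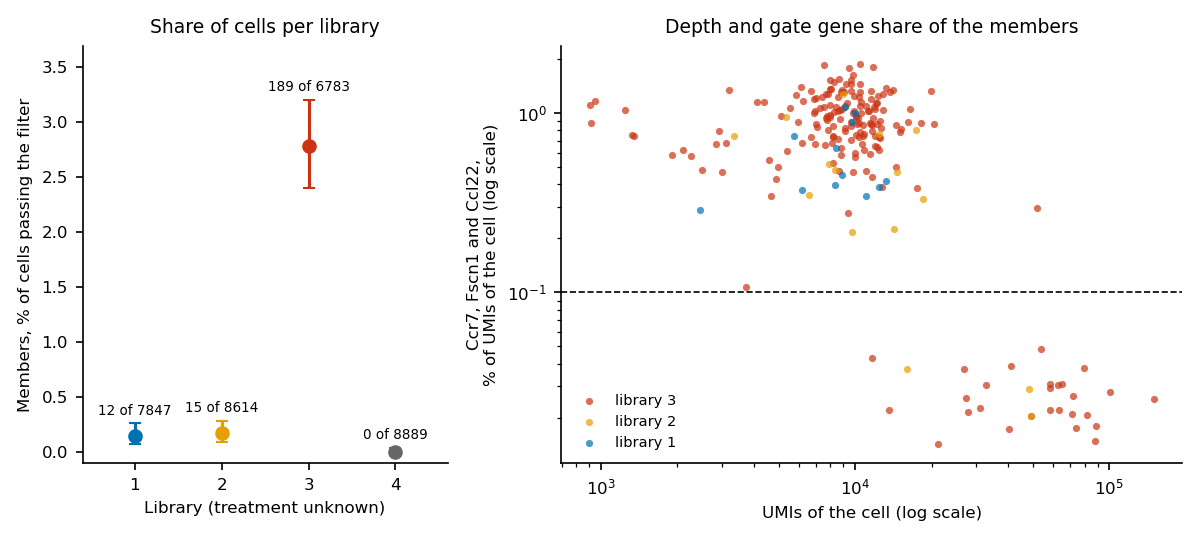
Left, the share of cells passing the filter that were members in each library of unknown treatment, with exact 95% binomial intervals. Right, each of the 216 members by its UMI count and by the percentage of its UMIs from Ccr7, Fscn1 and Ccl22, both on log scales, with the 30 cells under the 0.1% line at high UMI counts and the 186 others above it.

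Markers of dendritic cells were at higher levels in the 186 cells than in the 30. Counts were summed over the cells of a set and scaled to a total of 1000000 UMIs (CPM). The conventional dendritic cell list (9 genes, all measured, Cd74 the most abundant) summed to 28572 CPM in the 12 cells of library 1, 32055 in the 12 of library 2 and 5455 in the 162 of library 3, against 836 in the 30 cells. In library 3 that was below the other dendritic cells described further on, with 25226 CPM in its Cd209a cells and 52173 CPM in its Xcr1 cells. The fibroblast list (8 genes, Col3a1 the most abundant in the 30, at 4015 CPM) was at 11615 CPM in the 30 and at 75.9, 1484 and 1291 CPM in the 186. The T cell list summed to 190, 283 and 276 CPM in the 186, of which Il7r was the most abundant. Trac, Cd8b1 and Cd5, which the rule did not use, were at 0. Cd3d and Cd3g were at 0 because the rule asked for it. The macrophage list was at 1897, 1028 and 167 CPM and the neutrophil list at 256, 3674 and 1117 CPM. The tumour or epithelial list was at 740, 94.2 and 110 CPM. It holds Krt8 and Krt18, whose share of UMIs the rule limited, although without that limit the members still numbered 216. The type 1 dendritic cell list was at 1783, 565 and 948 CPM, the type 2 list at 1669, 864 and 553 CPM and the plasmacytoid list at 465, 746 and 304 CPM. The monocyte list (284, 1178 and 289 CPM) was higher in library 2 than in the other libraries, as the neutrophil and fibroblast lists were. The NK or ILC list was at 114, 47.1 and 75.3 CPM, the B cell list at 9.48, 94.2 and 17.8 CPM, and the basophil, endothelial and erythroid lists reached at most 28.4 CPM in any library. The part of these other cells' RNA in the results was not tested. In the filtered matrix, 3434 cells had the collagen genes of fibroblasts and no UMI of Ptprc, and how complete the sort for CD45 was was not tested. Among members, 22 lay in the highest 5% of doublet scores, 2 of them among the 30, and 84 had 2 or more UMIs of a gene of another lineage, including all 30.

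**Figure D2:**
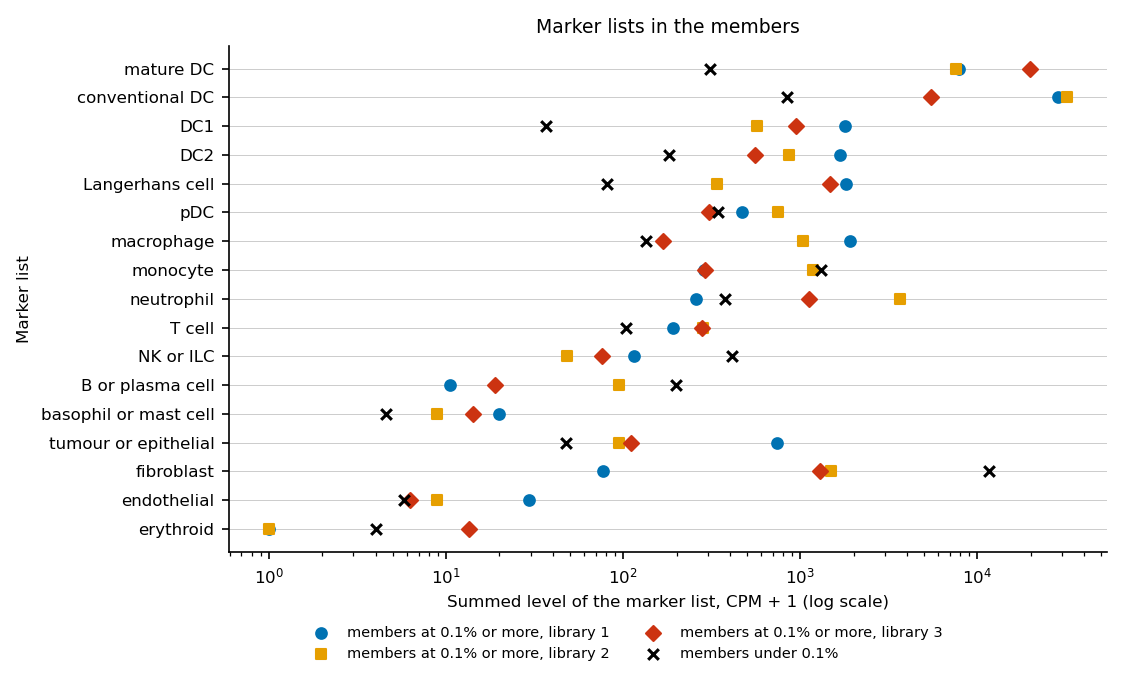
Summed level of each cell type marker list, in CPM plus 1 on a log scale, in the 186 members by library and in the 30 members under 0.1%. The 30 cells lead the fibroblast list at 11615 CPM and have 836 CPM of the conventional dendritic cell list, where the 186 have between 5455 and 32055 CPM.

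The levels below are those of the 186 cells, and the list counts are those of the 186 within libraries. The counts of all 216 members pooled are added for some lists, among them each list in which they changed which side was larger. Libraries 1 and 2 rest on 12 cells each, so their intervals are wide, and the pooled level is mostly that of library 3. The intervals of levels cover counting error only and leave out the spread between cells. In bulk sums, fewer cells of a type and less RNA per cell cannot be told apart, but here each cell was counted by itself.

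The 3 genes used by the rule were high in each library. Ccr7, the receptor for the lymph node chemokines CCL19 and CCL21, was at 2589, 2410 and 3579 CPM in libraries 1, 2 and 3 (95% Poisson interval 3347 to 3522 CPM over the 186, pooled 3434). Fscn1, which bundles actin in the long dendrites of the mature cell, was at 1716, 1923 and 4013 CPM. Ccl22, which draws CCR4-bearing regulatory T cells, was at 1631, 1256 and 1842 CPM. These genes lie on chromosomes 11 (Ccr7, 99144196 to 99155077, minus strand), 5 (Fscn1, 142960343 to 142973185, plus strand) and 8 (Ccl22, 94745590 to 94751699, plus strand) of the GRCm38 build. The 186 cells, 0.579% of the cells, held 66.6% of all Ccr7 UMIs and 81.8% of all Ccl22 UMIs in the filtered matrix.

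Ccl5 differed in level between the libraries. It encodes a chemokine that attracts T cells, and lies on chromosome 11 (83525778 to 83530518, minus strand). Its level was 1925 CPM (1669 to 2209) in library 1, 1986 CPM (1749 to 2247) in library 2 and 10419 CPM in library 3, and 9291 CPM (9148 to 9435) over the 186. The median cell had 2.64 Ccl5 UMIs per 10000 in library 1, 12.8 in library 2 and 83.1 in library 3. In libraries 1 and 2 only 1 of 12 cells each had 100 or more, at 205 and 147 UMIs per 10000, with upper quartiles of 18.0 and 21.5, so the summed levels there lean on single cells and their counting intervals do not show that spread. In library 3, 69 of 162 cells had 100 or more. Library 3 was thus the high one, and the intervals of libraries 1 and 2 overlapped each other. After thinning to 2000 UMIs, for which 179 of the 186 were deep enough, 90.5% held a Ccl5 UMI, against 5.63% of Xcr1 dendritic cells. Over all 216 members the level was 4784 CPM, since the 30 deep cells add UMIs and little Ccl5.

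Of the other chemokines, Ccl17, a second ligand of CCR4 that sits beside Ccl22 on chromosome 8 (94810453 to 94812036, plus strand), went the other way. It was at 1185 CPM (986.7 to 1412) in library 1, 259 CPM (178.3 to 363.8) in library 2 and 211 CPM (188.3 to 235.3) in library 3. The summed level was highest in library 1, from 8 of its 12 cells with a UMI, and the intervals of libraries 2 and 3 overlapped. Whether single cells carried the level of library 1 was not examined, and the counting intervals do not show it. Cxcl16, a ligand of CXCR6 on T cells, was more even, at 967, 644 and 812 CPM. Cxcl2, which attracts neutrophils, was at 816, 2253 and 1138 CPM. Ccl19 was not seen in any of the 186 cells, which allows up to 1.72 CPM, and only 216 UMIs of it were present in all filtered cells.

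To set the mature cells beside their nearest relatives, 3 populations were taken from the same libraries by UMIs of a few genes, with Ccr7 at 0 in each. Cd209a dendritic cells (Cd209a and Flt3, no Xcr1 or Clec9a, 114 cells, of which 38 also had Siglech, a plasmacytoid gene) stood for type 2 cells. They were a mixed set, with the type 2 list at 2649 CPM, the plasmacytoid list at 2744 CPM and the monocyte list at 4319 CPM. In libraries 2 and 3 the type 2 list was at 3042 and 3649 CPM. The plasmacytoid list was at 2368 and 2979 CPM there, and the monocyte list at 3380 and 3485 CPM. Xcr1 dendritic cells (Xcr1 and Clec9a, 71 cells) stood for type 1 cells, which take up dead cells and present to CD8 T cells. C1q macrophages (C1qa, C1qb and Csf1r, no Flt3) numbered 2157. A gene was counted where the mean level of the populations compared was at least 20 CPM, and was called where it differed 2-fold or more, after adding 10 CPM to each level. The log2 ratios depend on those 10 CPM for low genes. Genes that chose a population were left out of the counts.

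Over all 216 members, pooled, 515 of 6108 genes (8.43%) were 2-fold or more higher and 612 (10.0%) lower than in Cd209a dendritic cells. Against Xcr1 dendritic cells the counts were 843 of 5788 higher (14.6%) and 553 lower (9.55%), and against C1q macrophages 662 of 5991 higher (11.0%) and 671 lower (11.2%). The pooled counts mix libraries and include the 30 cells. The same was therefore done with the 186 inside each library, asking for a mean ratio of 2-fold and the same sign in each library, a setting added after the data were seen because only library 3 had 20 or more of the 186. Then 586 of 5803 genes were higher (10.1%) and 991 lower (17.1%) than in Cd209a dendritic cells over libraries 2 and 3. Against Xcr1 dendritic cells, over libraries 1, 2 and 3, 576 of 5287 were higher (10.9%) and 603 lower (11.4%). Against C1q macrophages, over the same libraries, 482 of 5664 were higher (8.51%) and 996 lower (17.6%). In library 3 the comparison cells were few, with 15 Cd209a and 6 Xcr1 dendritic cells. The median log2 ratio of all counted genes was −0.28, −0.11 and −0.24 in the 3 within-library comparisons, and −0.04, 0.11 and 0.13 in the pooled ones. Those shifts are the background against which the lists below stand. None of these counts is a test, and the 3 comparisons share the mature cells, so they are not independent.

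The list of other genes known from mature dendritic cells was one-sided within libraries. Of 19 counted genes, 16 were higher within libraries than in Cd209a dendritic cells and 0 were lower, with a median log2 ratio of 3.07. Against Xcr1 dendritic cells 18 of 19 were higher, and against C1q macrophages 18 of 19, with 0 lower in each. With all 216 members pooled, the counts were 14, 17 and 16 of 17. Of all counted genes, 10.1%, 10.9% and 8.51% were higher within libraries, and 8.43%, 14.6% and 11.0% with all 216. The list comes from knowledge of this cell type, which the gate genes belong to, and is no independent evidence for the label. Serpinb6b, an inhibitor of proteases, was at 967, 762 and 1673 CPM and had no UMI in the 40 Cd209a dendritic cells of libraries 2 and 3. With both libraries summed and 3 counts over that group as the floor, it was at least 256-fold higher. Most member UMIs in that sum were from library 3 and most Cd209a cell UMIs from library 2. Inside a single library the bound is lower, here and for the other folds over a floor below. Serpinb9, which protects cells from granzyme B, was at 1441, 573 and 1391 CPM, against 9.73 and 17.6 CPM in the Cd209a cells of libraries 2 and 3. Its log2 ratio was 5.27 ± 0.55 (SD, n = 2 libraries). Tmem123 was at 967, 1405 and 2271 CPM with a log2 ratio of 4.52 ± 0.13 (SD, n = 3) against Xcr1 cells, a small spread between libraries. H2-M2, a class I-like gene, was at 578, 55.0 and 384 CPM, from 3, 2 and 118 cells with a UMI. It was at 0 in both dendritic cell populations of these libraries. With the libraries summed, it was at least 57.2-fold higher than in Cd209a cells and at least 95.9-fold higher than in Xcr1 cells. Both bounds are lower inside a single library. Nudt17 was at 190, 212 and 231 CPM, nearly the same in all 3 libraries.

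Costimulatory ligands, which give T cells the second signal beside the MHC peptide, were more often higher than lower. Of 12 counted against Cd209a cells 7 were higher and 1 lower, of 10 against Xcr1 cells 5 and 1, and of 10 against macrophages 7 and 0. With all 216 members pooled, the counts were 3 higher and 1 lower of 9, 3 and 2 of 8, and 3 and 1 of 8. Of all counted genes within libraries, 10.1%, 10.9% and 8.51% were higher and 17.1%, 11.4% and 17.6% lower. The lower counts of the list within libraries were near or under those shares. Pooled, 8.43%, 14.6% and 11.0% of all genes were higher and 10.0%, 9.55% and 11.2% lower. Cd40, the receptor through which helper T cells license dendritic cells, was at 199 CPM (123.3 to 304.4), 220 CPM (146.1 to 317.7) and 537 CPM (501 to 575.5) in libraries 1, 2 and 3. The summed level was highest in library 3, and the intervals of libraries 1 and 2 overlapped. These are counting intervals, and the spread of Cd40 between cells was not examined. Against Cd209a cells, at 13.0 and 47.0 CPM in libraries 2 and 3, its log2 ratio was 3.29 ± 0.04 (SD, n = 2). Cd83, which holds class II and Cd86 on the surface, was at 1072, 534 and 1017 CPM. Its ratio was past 2-fold against Cd209a cells (1.71 ± 0.32, n = 2) and not against Xcr1 cells (0.87 ± 0.84, n = 3). Cd86 was at 313, 267 and 206 CPM and was called against the macrophages only (1.82 ± 0.91, n = 3), with 0.99 ± 0.09 against Cd209a and 0.56 ± 0.22 against Xcr1 cells. Icam1, the adhesion ligand of the T cell contact, was at 408, 259 and 371 CPM and was called against each population. Cd48 was the lower one, at 37.9, 78.5 and 38.3 CPM, with −2.03 ± 1.33 against Cd209a cells.

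Inhibitory and regulatory genes were also more often higher than lower. Within libraries 9 of 12 were higher and 2 lower than in Cd209a cells, 7 of 13 and 2 against Xcr1 cells, and 9 of 13 and 3 against macrophages. Of all counted genes, 10.1%, 10.9% and 8.51% were higher and 17.1%, 11.4% and 17.6% lower, so the lower counts were near the share of all genes. Cd274, which encodes the checkpoint ligand PD-L1, was at 351 CPM (247 to 483.6), 330 CPM (237.6 to 445.7) and 242 CPM (217.7 to 268), with intervals that overlapped. It was 2.23 ± 0.32 above the Cd209a cells on the log2 scale (SD, n = 2) and 2.70 ± 0.63 above the Xcr1 cells (n = 3). Neutrophils of libraries 1 to 3 had Cd274 at 156, 155 and 126 CPM, in 48.4%, 40.9% and 39.5% of cells. The C1q macrophages had it at 108, 37.1 and 65.1 CPM. Socs2, a brake on cytokine signalling, was at 256, 534 and 535 CPM, and 4.93 ± 0.83 above the Xcr1 cells. Il4i1, an enzyme that breaks down aromatic amino acids, was at 730, 1138 and 366 CPM, and at 0 in the Xcr1 cells of libraries 1 to 3. Against those cells it was at least 115-fold higher with the libraries summed, and the bound is lower inside each library. Cd200, a ligand that restrains myeloid cells, was at 266, 314 and 237 CPM and was called against all 3 populations. Pdcd1lg2, the other ligand of PD-1, was lower in level, at 152, 55.0 and 23.8 CPM. Lgals9 and Vsir were 2-fold or more lower than in Cd209a cells.

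**Figure D3:**
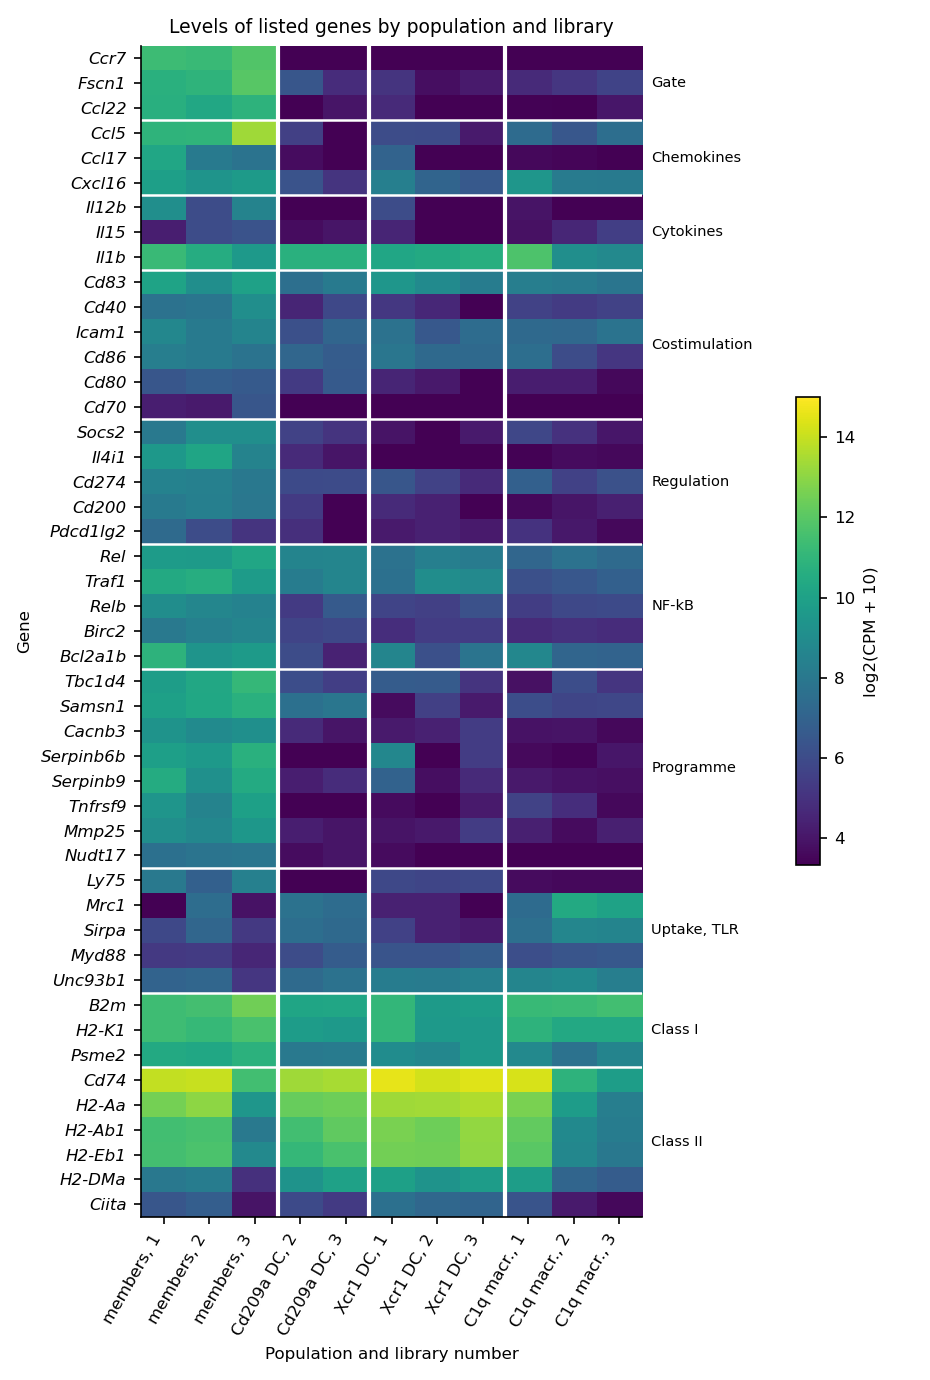
Levels of listed genes as log2(CPM + 10), with genes in rows and, in columns, the 186 members and the comparison populations by library number. Cd40, Socs2 and Il4i1 stand out in the member columns, while H2-Ab1 and Cd74 are lower in library 3 members than in those of libraries 1 and 2.

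Genes of MHC class II presentation differed widely between the libraries. H2-Ab1, the class II beta chain, was at 2778 CPM (2469 to 3116) in library 1, 3140 CPM (2840 to 3464) in library 2 and 252 CPM (227.8 to 279.1) in library 3. H2-Aa was at 6069, 8243 and 701 CPM, and Cd74, the chaperone of class II, at 15561, 16518 and 2780 CPM. Library 3 was below both other libraries in each of these genes, outside their counting intervals. The intervals of libraries 1 and 2 overlapped for H2-Ab1 and Cd74 and not for H2-Aa (5608 to 6558 and 7752 to 8757 CPM). The peptide exchange genes H2-DMa (247, 290 and 20.5 CPM) and H2-DMb1 (94.8, 62.8 and 3.97 CPM) had the same order, with library 3 lowest. Ciita, the transcription factor that switches class II genes on (chromosome 16, 10480059 to 10528418, plus strand), was at 75.9, 102 and 5.29 CPM.

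The gap was seen cell by cell. The sum of Cd74, H2-Aa, H2-Ab1 and H2-Eb1 had a median of 255 UMIs per 10000 in library 1, 240 in library 2 and 27.4 in library 3. Only 4 of the 162 library 3 cells reached the joint median of libraries 1 and 2 (241), and 2 of the 24 cells of libraries 1 and 2 lay below the library 3 median, so the cells overlapped at the ends only. After thinning to 2000 UMIs, H2-Ab1 was found in 91.7% of the cells of library 1, 83.3% of library 2 and 19.4% of library 3. It was also found in 14.6% of thinned neutrophils of all libraries. The neutrophils were picked by Csf3r, S100a8 and S100a9 alone, and the source of their H2-Ab1 was not tested. Without thinning, neutrophils with H2-Ab1 made up 52.8%, 17.4%, 15.2% and 26.5% in libraries 1 to 4, at 1572, 152, 133 and 232 CPM. In library 1 the neutrophil level of 1572 CPM stands beside 2778 CPM in the mature cells, and its part in that value was not tested. Cd74 was found in 92.2% of the thinned 186, against 29.3% of neutrophils.

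Class II differed among the other cells of library 3 as well. H2-Ab1 was at 4595 CPM in its 15 Cd209a dendritic cells and 8808 CPM in its 6 Xcr1 dendritic cells. The Cd209a cells were uneven, with a median of 147 class II UMIs per 10000, a lower quartile of 7.95 and 8 of 15 cells at 100 or more, while all 6 Xcr1 cells reached 100. The C1q macrophages were high only in library 1, and in library 3 they were near the mature cells, with H2-Ab1 at 4642, 460 and 289 CPM in libraries 1, 2 and 3. The order among macrophages therefore differed from that of the mature cells, in which H2-Ab1 was at 2778 and 3140 CPM in libraries 1 and 2. Against Xcr1 cells 9 of 13 counted class II genes were lower within libraries and 0 higher, against Cd209a cells 2 of 10 lower and 0 higher, and against macrophages 1 of 10 lower and 2 higher. Of all counted genes 11.4%, 17.1% and 17.6% were lower, so the counts against Cd209a cells and macrophages were near or under the share of all genes. Over all 216 members pooled, 11 of 11 were lower than in Cd209a cells, 11 of 13 than in Xcr1 cells and 9 of 10 than in macrophages, with 0 higher. Most cells behind the pooled counts are those of library 3. Within libraries, the log2 ratio of H2-Ab1 against Cd209a cells had an SD of 3.02 over libraries 2 and 3, more than the size of its mean, and it was not called. The 7 library 3 cells with 100 or more class II UMIs per 10000 had Ccr7 at 5027 CPM and Fscn1 at 3212 CPM, beside 3516 and 4048 CPM in the other 155, where the rule asked for both genes in every cell. The mice were BALB/c, and their H2 alleles differ from the reference genome, which could change the counts of H2 genes in every population alike. Whether this played a part was not tested.

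Class I genes, which present to CD8 T cells, had another order. B2m, the class I light chain, was at 2636, 2936 and 5568 CPM and H2-K1 at 2617, 2285 and 3188 CPM. Per cell, the summed class I genes and B2m had medians of 96.4, 86.9 and 135 UMIs per 10000 in libraries 1, 2 and 3, so library 3 was the highest here and the lowest for class II. Within libraries 10 of 15 class I genes were higher than in Cd209a cells, 5 of 15 than in Xcr1 cells and 6 of 15 than in macrophages, with 2 lower in each. The lower ones were the chaperones Calr and Pdia3 each time. Of all counted genes, 10.1%, 10.9% and 8.51% were higher and 17.1%, 11.4% and 17.6% lower, so the lower class I counts were near the share of all genes. With all 216 members, only 1 of 13, 1 of 13 and 1 of 15 were higher, and 0, 4 (Tap1, Tap2, Psmb8 and Psmb9) and 0 were lower. Of all counted genes pooled, 8.43%, 14.6% and 11.0% were higher and 10.0%, 9.55% and 11.2% lower. The pooled higher counts were thus near or under the share of all genes. Psme2, an activator of the proteasome, was at 1347, 1225 and 1790 CPM and was called against each population, with 2.44 ± 0.27 against Cd209a cells (SD, n = 2). H2-D1 and H2-K1 are close copies whose reads could have been split, and are uncertain.

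**Figure D4:**
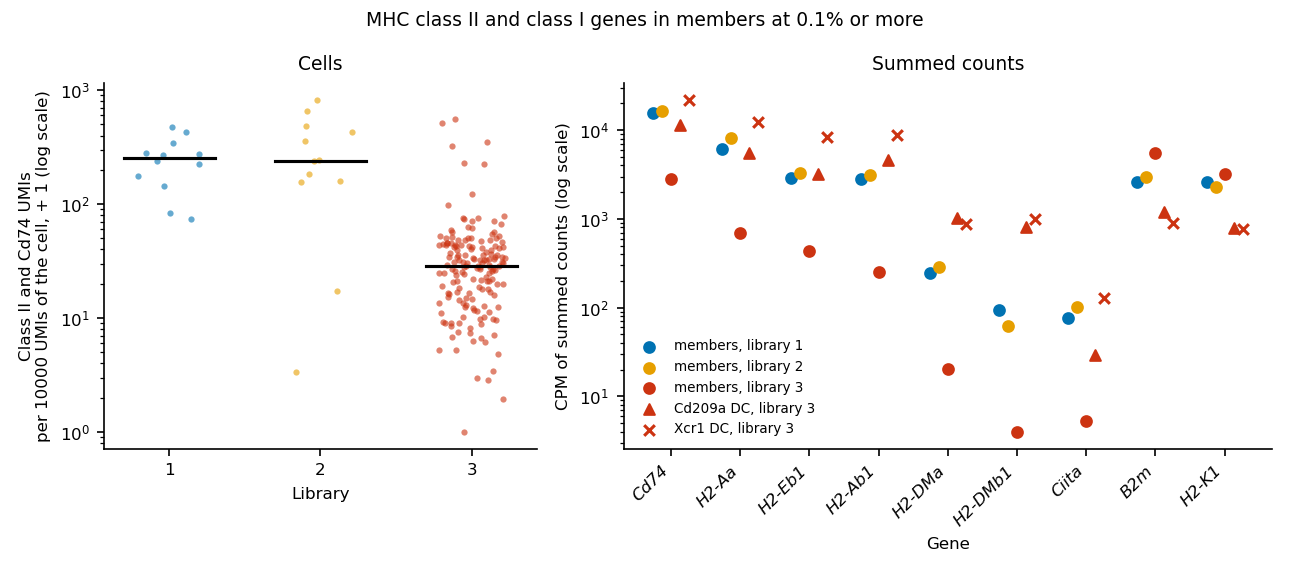
Left, UMIs of Cd74, H2-Aa, H2-Ab1 and H2-Eb1 per 10000 UMIs plus 1, on a log scale, for each of the 186 members by library, with lines at the medians of 255, 240 and 27.4. Right, CPM of class II and class I genes on a log scale in the 186 by library and in the Cd209a and Xcr1 cells of library 3, with library 3 members lowest for class II genes while B2m and H2-K1 are not.

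Receptors for antigen uptake were mostly lower than in Cd209a cells and macrophages. Of 16 counted, 10 were lower and 2 higher than in Cd209a cells, and of 19, 16 were lower and 1 higher than in macrophages. Against Xcr1 cells, 4 of 11 were higher and 1 lower. Of all counted genes, 17.1%, 17.6% and 11.4% were lower in these comparisons, in that order. Markers of other cells moved too. Against Cd209a cells, 5 of 7 monocyte markers were lower and 1 higher, 8 of 9 plasmacytoid and 0, and 4 of 10 macrophage and 2. Against macrophages, 8 of 8 macrophage markers were lower. Mrc1, the mannose receptor, was at 0, 173 and 4.63 CPM, and Fcgr3, an IgG receptor, at 75.9, 110 and 10.6 CPM. Axl was the other gene counted higher than in Cd209a cells beside Ly75 (DEC-205), an endocytic receptor of lymph node dendritic cells, at 256, 110 and 333 CPM. Ly75 was called higher against all 3 populations, with no UMI in the Cd209a cells of libraries 2 and 3. With these libraries summed it was at least 50.4-fold higher, and the bound is lower inside either library. Of 19 listed Toll-like receptors and adaptors, only 6 or 7 were counted in a comparison. Against Cd209a cells 4 of 7 were lower and 1 higher, against Xcr1 cells 3 of 6 lower and against macrophages 3 of 7 lower, with 0 higher in both. Of all counted genes, 17.1%, 11.4% and 17.6% were lower. Myd88, the shared adaptor, was at 28.4, 31.4 and 13.9 CPM and was called lower each time. Tlr8, Tlr9 and Tlr11 had no UMI in the 186 cells.

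NF-kB and survival genes were more often higher than lower in each comparison. Of 21 counted against Cd209a cells, 13 were higher and 1 (Bcl2l11, which promotes cell death) lower. Against Xcr1 cells 13 of 22 were higher, and against macrophages 11 of 22, with 0 lower. With all 216 members the counts of higher genes were 8 of 22, 11 of 21 and 9 of 21. Of all counted genes, 10.1%, 10.9% and 8.51% were higher within libraries, and 8.43%, 14.6% and 11.0% with all 216. Relb, the partner of the non-canonical pathway, was at 512, 400 and 352 CPM and 2.92 ± 0.54 above Xcr1 cells on the log2 scale (SD, n = 3). Birc2, an inhibitor of apoptosis, was at 256, 330 and 391 CPM and 3.16 ± 0.14 above them. Traf1 was at 1356, 1523 and 831 CPM and was called against each population. Bcl2a1b and Bcl2a1d were also higher, but they are near-identical copies and are uncertain.

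Genes of the cytoskeleton and of migration were more often higher than lower as well. Counts were 14 higher and 3 lower of 26 against Cd209a cells, 11 and 4 of 26 against Xcr1 cells, and 11 and 0 of 24 against macrophages. Of all counted genes, 10.1%, 10.9% and 8.51% were higher and 17.1%, 11.4% and 17.6% lower. Tbc1d4, a regulator of vesicle traffic, was at 882, 1256 and 2198 CPM, with log2 ratios of 4.91 ± 0.99, 4.25 ± 1.57 and 5.40 ± 1.01 against the 3 populations. Samsn1 was at 996, 1248 and 1721 CPM and 5.89 ± 0.98 above Xcr1 cells. Cacnb3, a calcium channel subunit, was at 635, 471 and 553 CPM, even across libraries, and was found in 67.0% of the thinned 186 against 1.54% of neutrophils. Without thinning, deeper cells held it more often, at 35.4% to 40.7% of fibroblasts by library. In tumour cells of libraries 1 and 2 it was 33.6% and 51.1%. Its level in these cells was 16.1 to 33.1 CPM. Itgax, the integrin CD11c often used to sort dendritic cells, was low, at 37.9, 0 and 2.64 CPM, and lower than in both dendritic cell populations. It was found in 5 of the 186 cells, 1 in library 1 and 4 in library 3.

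Chemokine receptors other than Ccr7 were mostly lower or not called. Of 6 counted against Cd209a cells 1 was higher and 3 lower, of 5 against Xcr1 cells 2 and 2, and of 6 against macrophages 0 and 4. With all 216 pooled, 1 was higher and 3 lower of 5 against Xcr1 cells. Within libraries, 10.1%, 10.9% and 8.51% of all counted genes were higher and 17.1%, 11.4% and 17.6% lower. Ccr2, which guides monocytes to inflamed tissue, was called lower against all 3 populations. Its level was 0, 15.7 and 3.30 CPM in the mature cells, against 247 and 88.1 CPM in the Cd209a cells of libraries 2 and 3. Ccrl2 was higher than in both dendritic cell populations. Among chemokines, 7 of 16 were higher and 2 lower than in Cd209a cells, and 6 of 18 and 2 than in Xcr1 cells. The first split depended on the summing, with 4 higher and 5 lower of 16 when the 186 were pooled over libraries, and 6 and 4 of 15 with all 216 pooled. Against macrophages 12 of 18 were lower, Ccl2, Ccl7 and Ccl8 among them, and 3 were higher, which were Ccl5, Ccl17 and Cxcl16.

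Among cytokines, 2 of 10 were higher and 1 lower than in Cd209a cells, 2 of 8 and 0 than in Xcr1 cells, and 1 of 13 and 5 than in macrophages. Of all counted genes, 10.1%, 10.9% and 8.51% were higher and 17.1%, 11.4% and 17.6% lower in these comparisons. With all 216 pooled, 5 of 12 were higher and 5 lower than in macrophages. Il12b was the one called higher in each. It encodes the p40 chain shared by IL-12 and IL-23. The level was 531 CPM in library 1 (401.1 to 689.6), 55.0 in library 2 (22.09 to 113.2) and 366 in library 3 (336.3 to 397.9), from 3, 1 and 71 cells with a UMI. Thus 75 of the 186 cells held 74.1% of all Il12b UMIs in the filtered matrix, and 57 other cells held the rest. With only 3 and 1 members holding Il12b in libraries 1 and 2, the counting intervals there do not show the spread between cells. After thinning, 24.0% of the 186 held a UMI, against 0.0932% of neutrophils. With libraries 2 and 3 summed, it was at least 54.5-fold higher than in Cd209a cells, which had none there. The bound is lower inside either library. Il15, which sustains CD8 T and NK cells, was at 9.48, 55.0 and 70.1 CPM, and its receptor chain Il15ra at 19.0, 62.8 and 118 CPM. Il15ra was called higher each time and Il15 against Cd209a cells alone. Il1b was at 2418, 1499 and 782 CPM and was called in none of the 3. Of cytokine receptors, 3 of 19 were higher and 6 lower than in Cd209a cells, 5 and 2 of 19 than in Xcr1 cells, and 4 and 6 of 19 than in macrophages. By the same shares of all genes, the 3 higher than in Cd209a cells and the 2 lower than in Xcr1 cells are near the background. With all 216 pooled, 5 of 19 were higher and 6 lower than in Xcr1 cells. Il7r, the receptor of the T cell growth factor IL-7, was at 152, 228 and 246 CPM and at 0 in the Xcr1 cells of libraries 1 to 3. With these libraries summed it was at least 61.8-fold higher, and the bound is lower inside each library.

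Transcription factors of the dendritic cell lineages were more often higher than lower. Of 21 counted against Cd209a cells 7 were higher and 2 lower, of 19 against Xcr1 cells 7 and 2, and of 18 against macrophages 10 and 3. Of all counted genes, 10.1%, 10.9% and 8.51% were higher and 17.1%, 11.4% and 17.6% lower. The lower counts of the list were near or under those shares. Batf3, needed for type 1 cells, was at 218, 165 and 136 CPM, 2.89 ± 0.45 above Cd209a cells (SD, n = 2) and −0.08 ± 0.47 from Xcr1 cells (n = 3). Irf8, high in type 1 cells, was at 1347, 290 and 697 CPM, and −1.11 ± 0.76 from Xcr1 cells. The type 1 genes Naaa, Wdfy4 and Itgae were called lower than in Xcr1 cells, while Clec9a, a gene used to choose those cells, had no UMI in the 186. The type 2 marker Mgl2 was called lower than in Cd209a cells and higher than in Xcr1 cells. Flt3, the growth factor receptor of dendritic cells, was at 94.8, 149 and 177 CPM, and 29.1% of the thinned 186 held it, against 33.3% of Cd209a cells, which were chosen by it, and 0.256% of neutrophils. Of factors linked to activation, Stat3 was called higher each time, at 341, 385 and 640 CPM, as was Etv3, at 341, 589 and 351 CPM.

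Interferon-stimulated genes were counted against each population, and the difference between the comparisons was not tested. Within libraries 9 of 21 were higher and 1 lower than in Cd209a cells (10.1% and 17.1% of all counted genes were), 6 of 20 higher and 3 lower than in Xcr1 cells (10.9% and 11.4%), and 0 of 23 higher and 7 lower than in macrophages (8.51% and 17.6%). With all 216 members pooled the split turned to 4 higher and 7 lower against Cd209a cells, and to 3 and 8 against Xcr1 cells. Isg15 was at 550, 926 and 276 CPM and Irf7 at 47.4, 55.0 and 63.4 CPM. Irf7 was called lower than in Xcr1 cells and macrophages.

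Genes of lipid peroxidation and iron, the process at which the TIOs are aimed, were counted against each population, and the difference between the comparisons was not tested. Against Cd209a cells 1 of 14 was higher and 4 lower, where 10.1% and 17.1% of all counted genes were. Against Xcr1 cells 5 of 11 were higher and 0 lower (10.9% and 11.4% of all), and against macrophages 1 of 13 and 6 (8.51% and 17.6%). With all 216 pooled the split against Cd209a cells turned to 2 higher and 1 lower of 15. Slc7a11, the cystine importer that feeds glutathione, was at 66.4, 196 and 86.6 CPM and was called higher in all 3. Gpx4, which clears lipid peroxides, was at 398, 353 and 321 CPM, and 1.43 ± 0.14 above Xcr1 cells (SD, n = 3). Fth1, the iron store, was at 10640, 9703 and 5305 CPM and lower than in macrophages. Since the libraries are of unknown treatment, these values say nothing of the particles.

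Of the cell cycle genes, none was counted higher in the 186 cells within libraries. There 7 of 11 were lower than in Cd209a cells (17.1% of all counted genes were), 11 of 17 than in Xcr1 cells (11.4%) and 1 of 12 than in macrophages (17.6%). With all 216 pooled, 6, 3 and 11 of 20 were higher and 0 lower, where 8.43%, 14.6% and 11.0% of all counted genes were higher, so the count against Xcr1 cells was near the share of all genes. Top2a, which untangles DNA in dividing cells, was at 47.4, 7.85 and 15.2 CPM in the 186, and 139 CPM over the 216. Immediate early genes such as Fos, Fosb and Atf3 were called lower than in Xcr1 cells and macrophages, 5 of 19 and 13 of 20 of the list, with 0 higher. Against Cd209a cells 2 of 18, the heat shock genes Hspa1a and Hspa1b, were higher and 4 lower. Jun was at 3253, 534 and 268 CPM, but it was also high in the Xcr1 cells of library 1 (3033 CPM). Whether that library differed in other cells as well was not tested.

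**Figure D5:**
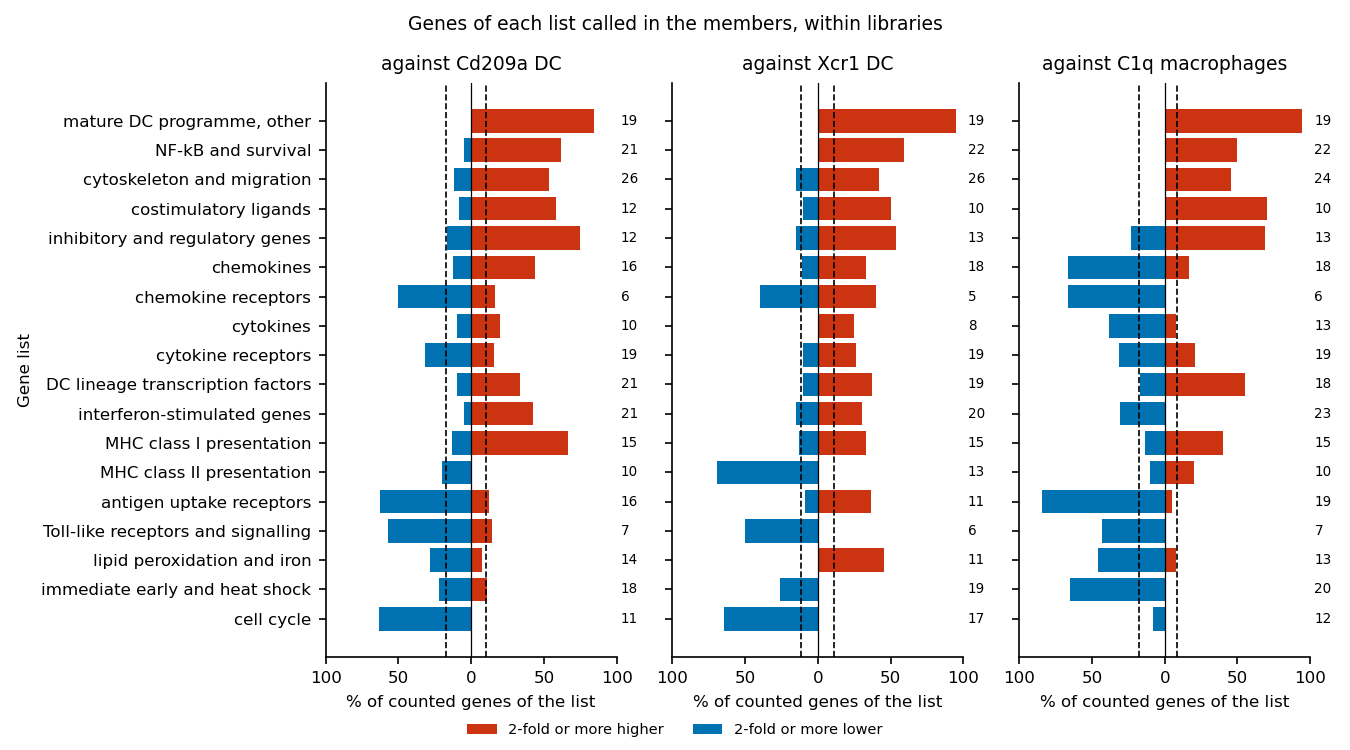
Percentage of the counted genes of each list that were 2-fold or more higher (right) or lower (left) in the 186 members, within libraries, with a panel for each comparison population. The mature dendritic cell list reaches 16 of 19 genes higher against Cd209a cells and 18 of 19 against both others, and antigen uptake receptors are lower in 10 of 16 and 16 of 19 against Cd209a cells and macrophages. Dashed lines mark the share of all counted genes called, and the number at the right edge is the count of genes in the list.

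Among all genes, those with the highest within-library ratio against Cd209a cells after Ccl5 (7.74 ± 3.24, SD, n = 2) and Serpinb6b were Tnfrsf9 and Gm13546. Tnfrsf9, the receptor 4-1BB, was at 673, 369 and 982 CPM with no UMI in those Cd209a cells, for at least 149-fold with libraries 2 and 3 summed. Gm13546, a gene with no assigned name, was at 303, 259 and 587 CPM, for at least 89.5-fold in the same sum. Both bounds are lower inside a single library. Serpinb9, Il4i1 and Mmp25 came after them, and Mmp25, a membrane-bound protease, was at 541, 416 and 724 CPM. Against Xcr1 cells, Mfge8 (1603, 243 and 1279 CPM), a bridge to apoptotic cells, and Fabp5, a fatty acid carrier, were also among the highest, the latter with 5.25 ± 0.54 (SD, n = 3). The lowest against Cd209a cells were Klk1, Cd209d, Mgl2, Cd7 and Mef2c. Klk1 and Siglech are plasmacytoid genes, and 38 of the 114 Cd209a cells carried Siglech. Without those cells, the pooled counts against them were 482 higher and 549 lower of 6025.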

How the data were processed

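The UMI counts were deposited by the authors as 1 matrix of whole numbers for 55450 genes and 33064 barcodes, not scaled. The authors made it with Cell Ranger, whose version is 6.1.2 in the matrix header, 3.0.2 in the methods and 2.1.1 in the submitters' processing notes, which name the build mm10. All identifiers were in GENCODE vM21 (GRCm38), used for positions. Files were read in python 3.11.15 with numpy 2.4.6, scipy 1.17.1, pandas 2.3.3 and scanpy 1.11.5, and drawn with matplotlib 3.10.9.

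Levels are CPM of summed counts with exact Poisson 95% intervals, and shares have Clopper-Pearson 95% intervals. Depth per library was 69255999 to 108646352 UMIs. The planned comparison inside libraries asked for 20 cells of each population in at least 2 libraries, which no comparison had, so pooled CPM was used, and the within-library version (5 cells or more) was added after seeing the data. For shares, cells were thinned to 2000 UMIs without replacement (seed 1), and 7 of the 186 members were left out as shallower. Doublets were kept, and Scrublet scores in scanpy served as an alternative. Floors are 3 counts over a group, and folds over a floor sum the libraries compared. The members and the gene lists were chosen with earlier results of these data known. The genes set to be named were the gate genes, Ccl5, up to 4 genes per list by CPM, and the called genes with the highest 15 and lowest 10 ratios against each dendritic cell population at 100 CPM or more. Not all genes of the last group are named here. Other genes of the lists were named beside their list's count, and genes such as Itgax, Il7r, Itgae and Mrc1 were picked after their values were seen. The scripts were tested on simulated data. Alternatives were other limits on genes, mitochondrial UMIs and gate UMIs, other lineage limits, doublet removal, thinning, other low-level filters and pseudocounts, and leaving out each library. The treatments were not compared. A few genes are not reported here.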

Additional observations from a re-analysis of the deposited data

How the results depend on the processing

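No paired analysis was possible because the libraries could not be tied to samples. Library 3 and the 30 low-gate cells set most of the pooled values, and 12 cells in each of libraries 1 and 2 limit what can be said of them. The share of members (0.672%) was 0.495% with 2 UMIs of each gate gene, 1.99% with any 2 of the 3 genes, 0.573% with Cd3e and Trac also at 0, 0.879% after removing cells with 2 UMIs of another lineage, and 0.579% with gate genes at 0.1% of UMIs or more (an alternative added after seeing the data, as are those on the 186 below). Leaving out each library in turn gave 0.107% (without library 3) to 0.929% (without library 4). Genes lower than in Cd209a cells (612 pooled) numbered 1050 after thinning, 1111 without cells with UMIs of another lineage, 1016 with the 186 pooled, 991 with the 186 within libraries and 1365 in library 3 alone. Genes higher than in Xcr1 cells (843) numbered 1342 with a filter of 5 CPM and 1342 with none, where more genes were tested. In library 3 alone, 970 were lower than in Xcr1 cells (553 pooled) and 1223 lower than in macrophages (671 pooled). The other counts stayed within 1.5 times under every setting run. The share of members with Ccl5 (88.4%) was 78.5% after thinning, 94.6% in the 186 and 66.7% to 90.0% leaving out each library, lowest without library 3. That with Flt3 (63.4%) was 24.9% after thinning and 71.5% in the 186, with Cd74 (96.3%) 82.3% after thinning, and with H2-Ab1 (63.0%) 26.3% after thinning and 61.2% to 88.9% leaving out each library, highest without library 3. The larger side turned in places. Against Xcr1 cells, 843 higher and 553 lower became 576 and 603 with the 186 within libraries, 772 and 826 without cells with UMIs of another lineage, and 842 and 970 in library 3 alone. Against macrophages, 662 higher and 671 lower became 734 and 657 without library 2, 691 and 624 without library 4, 850 and 778 with 1 CPM added, and 714 and 697 without the highest doublet scores.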

Other observations

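A few genes other than the gate genes had a large share of their UMIs in the mature cells, and they were singled out after their values were seen. Hand1, a transcription factor known from heart and trophoblast, had 83.0% of its UMIs in the filtered matrix inside the 186 cells. It was found in 52 of them, 1 in library 1, 0 in library 2 and 51 in library 3, and in 39 cells that were no members, 32 of which were in library 3. Its level was 142, 0 and 302 CPM. H2-M2 had 81.4% of its UMIs in the 186, from 123 of them and 66 cells that were no members, Gm13546 had 77.7%, and Cd70, the ligand of CD27 on T cells, had 57.3%. Fxyd2, a regulator of the sodium pump, was at 266, 31.4 and 611 CPM, with 43.7% of its UMIs in the 186, and was listed at 0 in the Xcr1 cells of libraries 1 to 3.

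Epcam and Cd207, genes known from Langerhans cells, the dendritic cells of the epidermis, were found in some mature cells of library 3. The Langerhans cell list summed to 1821, 338 and 1473 CPM in libraries 1, 2 and 3, of which Mfge8 alone made up 1603, 243 and 1279 CPM. Epcam, which epithelia also express, was found in 60 of the 162 library 3 cells and in 0.864% of the other cells of that library, Cd207 (langerin) in 20, and both in 8. The 162 were deeper, with a median of 9253 UMIs against 2606.5 in those other cells. After thinning, 12.3% of the 186 held Epcam, against 2.68% of neutrophils of all libraries, and 4.47% held Cd207, against 0.0699%. Without thinning, Epcam was found in 30.8% of the neutrophils of library 1 and 0.373% of those of library 3. Epcam is also a 4T1 tumour gene, and the part of tumour RNA in these counts was not tested.

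Ifitm1 had the reverse order of Ccl5 between libraries, at 3907, 1280 and 50.2 CPM. The Cd209a cells of libraries 2 and 3 had 2076 and 1087 CPM, so the low value of library 3 was not shared by them.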
